A study of Drosophila melanogaster with 2 samples.

Results

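The aminoacyl-tRNA synthetase genes of Drosophila melanogaster were examined in a chromatin immunoprecipitation sequencing (ChIP-seq) experiment on whole embryos. The members were the protein-coding genes of the Ensembl annotation whose symbol is an amino acid abbreviation followed by RS, with or without the ending -m, plus GluProRS. This gave 33 of 13945 protein-coding genes on the chromosome arms. Of these, 18 carry no ending and are called cytosolic here, and 15 end in -m and are called mitochondrial. These names follow the symbols alone. For 6 of the 18 there is no gene of the same symbol with -m. GluProRS is among these, but GluRS-m and ProRS-m are members for its amino acids, glutamate and proline. For the others, the symbols do not show whether such genes also supply mitochondria. Embryos of 0 to 16 hours, of both sexes, came from a transgenic line in which CG9437 (hng1) is fused at its C terminus to green fluorescent protein. The 2 biological replicates form the only group, so the comparisons are made between genes. A free-text label describes each sample as an input control, whereas the assay and antibody labels and the file manifests describe ChIP peaks. Which promoter drives the fusion is not given in the sources used here, and whole embryos mix all tissues and stages of that interval.

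An aminoacyl-tRNA synthetase typically joins 1 amino acid to its transfer RNAs, and the charged tRNA then carries that amino acid to the ribosome. GluProRS serves both glutamate and proline. Cytosolic enzymes supply the ribosomes of the cytoplasm. Mitochondrial enzymes are also encoded in the nucleus and are imported into mitochondria, where they supply the organelle's own ribosomes. The tagged protein, hng1, belongs to the MADF-BESS family of DNA-binding proteins.

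Candidate regions were deposited for replicate 1, for replicate 2 and for both pooled, 30000 in each list. The authors' final list, selected by irreproducible discovery rate, holds 6091 peaks, which are the strongest 6091 of the pooled candidates. Signal is the authors' value for each peak and was used to rank peaks within a list, since lists are not scaled to each other. Its median was 258 in the final list, with 148 as the lowest and 19974 as the highest value. Read numbers are not stated in the labels or files, and the depth behind each value is therefore unknown. A gene was counted when the summit of a peak, its highest point, lay within 500 bp of any annotated transcription start site (TSS) of that gene.

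The sequences under the leading summits are shown to let the words found there be compared between members. Each runs 5′ to 3′ on the strand of the synthetase gene, in dm6, and reaches 50 bp to each side of the summit. The 3 strongest members of each class outside the arm whose sequence is not printed here are given. ArgRS is added as the holder of the rarest word found. Capitals mark some of the words that were searched for on both strands, and the GAGAG of ArgRS is left in lower case. One is ACGTAA. On the opposite strand the same word reads as TTACGT. The others marked are the AT-rich word TATAAA and the longer word TATCGATA.
IleRS (chr3L:22288422-22288522, plus strand): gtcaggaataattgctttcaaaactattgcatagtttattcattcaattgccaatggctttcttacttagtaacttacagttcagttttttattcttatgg
SerRS (chr2L:3037346-3037446, minus strand): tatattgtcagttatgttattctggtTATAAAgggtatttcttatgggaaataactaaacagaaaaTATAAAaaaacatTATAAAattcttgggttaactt
GluProRS (chr3R:23958477-23958577, minus strand): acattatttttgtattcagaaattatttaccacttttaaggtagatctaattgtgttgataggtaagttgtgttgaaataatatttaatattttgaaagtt
ArgRS (chrX:15844358-15844458, minus strand): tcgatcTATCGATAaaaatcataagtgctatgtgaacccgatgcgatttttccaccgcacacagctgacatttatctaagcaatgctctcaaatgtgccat
SerRS-m (chr3R:15340517-15340617, plus strand): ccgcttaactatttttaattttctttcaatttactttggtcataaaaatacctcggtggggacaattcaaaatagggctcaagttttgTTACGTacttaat
IleRS-m (chr3L:16100216-16100316, plus strand): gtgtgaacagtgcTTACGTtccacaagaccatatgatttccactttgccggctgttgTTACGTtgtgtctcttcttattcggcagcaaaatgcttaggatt
ProRS-m (chr3L:2651920-2652020, minus strand): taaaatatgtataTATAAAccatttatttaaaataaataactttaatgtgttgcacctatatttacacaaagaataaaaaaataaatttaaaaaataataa
SerRS-m and IleRS-m hold TTACGT, once and at 2 places. SerRS holds TATAAA at 3 places and ProRS-m once, ArgRS holds TATCGATA, and the windows of IleRS and GluProRS hold none of the marked words.

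Final peaks lay at 15 of the 33 synthetase genes (45.5%), against 25.2% of all protein-coding genes. By class, the number was 9 of 18 cytosolic genes (50%) and 6 of 15 mitochondrial genes (40%). These counts are descriptions, since genes are not replicates, and no test was made between the classes or against other genes. Pooled candidates of any strength lay at 21 members (63.6%), against 50.6% of all protein-coding genes. Among those 21 the final share was 71.4%, against 49.8% of all protein-coding genes with a candidate. The 15 members had 15 different strongest summits, so no summit was counted for more than 1 synthetase. With every summit assigned to the single closest TSS, 7 of the 33 members had one (3 cytosolic and 4 mitochondrial). That share is near the 19.4% of all protein-coding genes. Among the 3045 strongest peaks the number was 8 of the 33 (6 cytosolic and 2 mitochondrial), against 15.5%.

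The highest signals at synthetase promoters belonged to mitochondrial enzymes, and most other mitochondrial peaks were weak. SerRS-m (15340667 to 15343218 on 3R, plus strand), which charges mitochondrial serine tRNAs, had a pooled signal of 7750.0 at rank 40 of the final list. Its peak region was also the widest of the 15, at 1255 bp, from 15339886 to 15341140 on 3R. IleRS-m (16100280 to 16103482 on 3L, plus strand), the mitochondrial isoleucine enzyme, had 2093 at rank 142, with the summit at 16100266 on 3L. The other 4 mitochondrial peaks lay between 168 and 199. They belonged to ProRS-m (199, rank 4284), PheRS-m (195, rank 4426), ArgRS-m (171, rank 5163) and CysRS-m (168, rank 5270). Each of these lay in the weaker part of the final list.

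Cytosolic peaks covered a narrower range, from 159 to 679.7. IleRS (22288665 to 22292810 on 3L, plus strand), the isoleucine enzyme, led with 679.7 at rank 741. The serine enzyme SerRS (3035493 to 3037403 on 2L, minus strand) followed with 648 at rank 799. AspRS (467), the bifunctional GluProRS (394), ThrRS (392) and AsnRS (348) formed a middle group at ranks 1325 to 2023. ValRS (203), MetRS (170.2) and ArgRS (159) had weak peaks at ranks 4173, 5194 and 5646. The median signal was 392 for the 9 cytosolic genes and 197 for the 6 mitochondrial genes. It was 348 for all 15 members and 309.8 for the 3511 protein-coding genes with a final summit at a TSS. The 2 highest values and the lower median thus both belonged to the mitochondrial set, and the ranges of the classes overlapped.

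**Figure D1:**
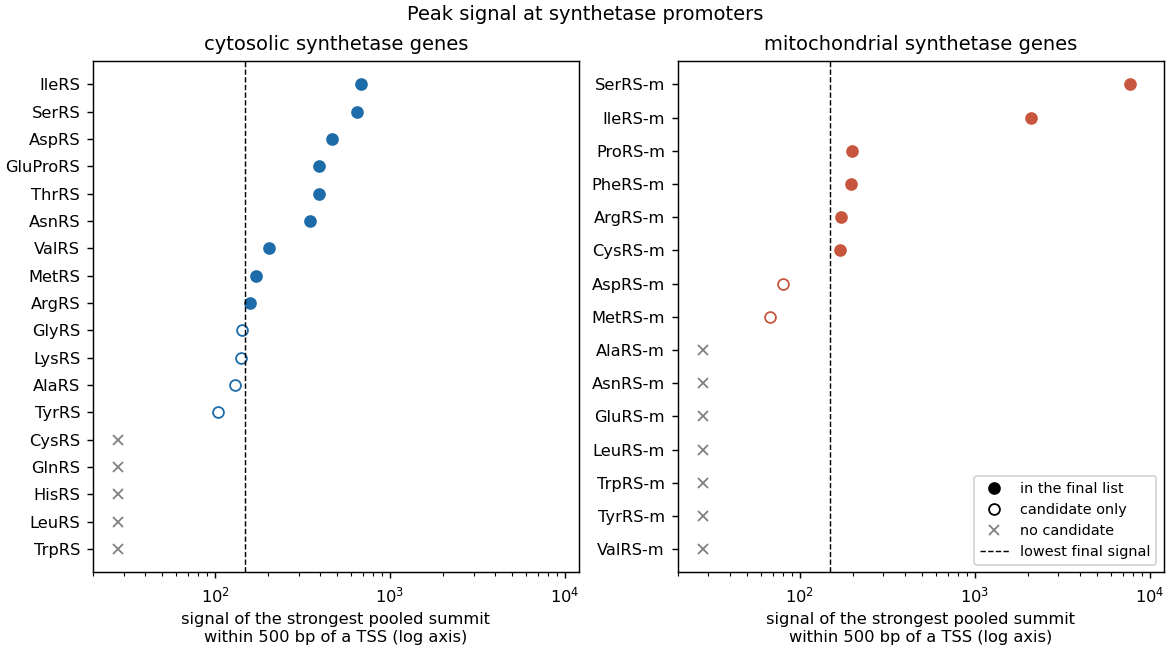
Signal of the strongest pooled summit within 500 bp of a TSS for each synthetase gene, on a log axis, cytosolic genes on the left and mitochondrial genes on the right. Filled points are final peaks, open points are candidates only, crosses mark genes with no pooled candidate (placed near the left edge, not at a value), and the dashed line is the lowest final signal of 148. SerRS-m (7750.0) and IleRS-m (2093) lie above every cytosolic gene in signal.

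The leading synthetase summits were strong in each replicate's own list. SerRS-m had a signal of 3599 at rank 45 in replicate 1 and 4255 at rank 37 in replicate 2. IleRS-m had 1081 at rank 144 in replicate 1 and 1034 at rank 149 in replicate 2. IleRS had 387 at rank 703 and 301 at rank 855, and SerRS had 397 at rank 670 and 254 at rank 1117, in replicates 1 and 2. These 4 summits thus ranked well within the 6091 strongest candidates of each replicate. All 15 final summits had a candidate summit within 100 bp in both replicates. The final list was made from these same lists, so that recovery follows in part from the selection.

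The middle group of cytosolic genes ranked higher in replicate 1. AspRS had a signal of 289 (rank 1107) in replicate 1 and 171 (rank 1952) in replicate 2. GluProRS had 241 (rank 1471) and 155 (rank 2246), in that order of replicates. ThrRS had 226 (rank 1597) and 157 (rank 2216), and AsnRS had 204 (rank 1844) and 146 (rank 2447). Of the 9 cytosolic summits, 7 ranked higher in replicate 1, as did 2 of the 6 mitochondrial summits and 61.7% of the 3231 protein-coding genes with a final summit found in both replicates. The combined share of the members, 9 of 15, was close to that of all these genes.

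Among the 7 weaker peaks, the ranks of PheRS-m and MetRS differed most between replicates, and those of the other 5 were closer together. PheRS-m, the mitochondrial phenylalanine enzyme, had a signal of 62.6 at rank 7975 in replicate 1 and 115 at rank 3389 in replicate 2. MetRS had 76.3 at rank 6451 in replicate 1 and 96.3 at rank 4371 in replicate 2. ArgRS had 67.2 at rank 7404 in replicate 1 and 62.4 at rank 7680 in replicate 2, where neither rank falls within the 6091 strongest. A stronger replicate 1 candidate of ArgRS, 93.1 at rank 5187, lay more than 100 bp from the final summit. ArgRS-m (ranks 4424 and 5571), ValRS (4386 and 4265), ProRS-m (4402 and 4193) and CysRS-m (5494 and 5090) were within the 6091 strongest candidates of replicates 1 and 2. When only the 6091 strongest candidates of 1 replicate were used, 14 members had a summit at a TSS in replicate 1 and 14 in replicate 2. The background was 25.2% of protein-coding genes in replicate 1 and 24.6% in replicate 2. Against the final list, MetRS and PheRS-m were lost and GlyRS was gained in replicate 1, and ArgRS was lost in replicate 2.

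**Figure D2:**
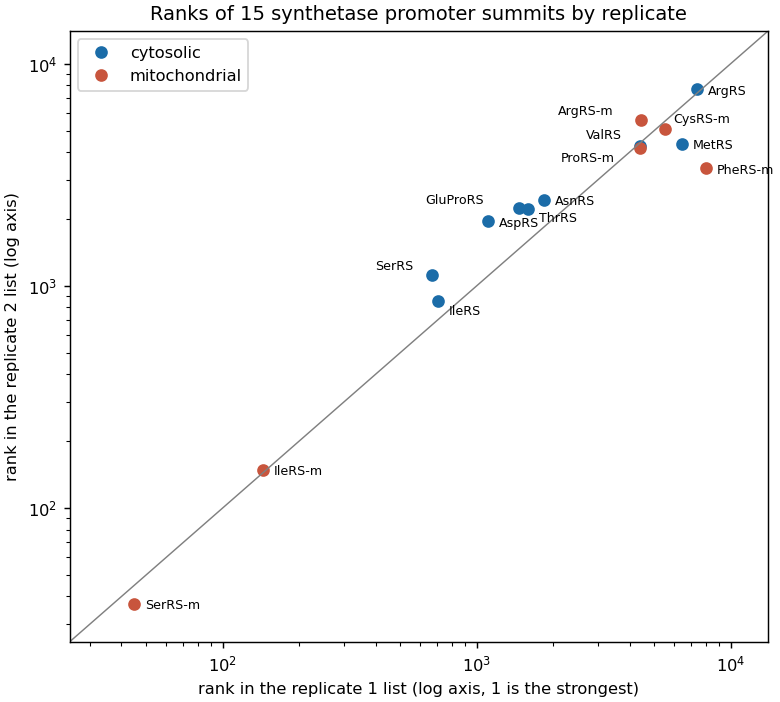
Rank of the candidate summit nearest to each of the 15 final synthetase summits in replicate 1 (horizontal) and replicate 2 (vertical), on log axes where 1 is the strongest, with the line of equal ranks. SerRS-m (45 and 37) and IleRS-m (144 and 149) lie near the line, and PheRS-m (7975 and 3389) lies farthest below it.

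Most of these summits lay upstream of the gene, in intervals shared with a gene read in the opposite direction. The strongest final summit was upstream of the nearest TSS of the member in 13 of 15 cases (86.7%), against 83.9% of all protein-coding genes with a final summit. The exceptions were SerRS at 7 bp and ArgRS-m at 5 bp downstream of the start, both in the 5′ UTR. The median distance was 193 bp upstream for cytosolic genes and 87 bp upstream for mitochondrial genes, against 143 bp upstream for all genes.

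At 12 of the 15 members the same summit also lay within 500 bp of the TSS of another protein-coding gene, against 58.0% of all protein-coding genes with a final summit. This held for 9 of 9 cytosolic and 3 of 6 mitochondrial genes. In each of the 12 the neighbour was divergent, meaning that it starts upstream of the synthetase TSS nearest the summit and is read away from that TSS. At AspRS that TSS is internal, so the neighbour Nmda1 starts within the AspRS gene and overlaps it. The summit lay between the start sites in 9 of them, and at 8 members the TSS of the neighbour was the nearer one. The peak lists do not tell which of the genes, if either, such a peak belongs to.

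The neighbours have varied functions. The IleRS summit at 22288472 on 3L lay 193 bp upstream of IleRS and 277 bp upstream of Hem, which encodes a subunit of the WAVE actin-regulating complex. The GluProRS summit at 23958527 on 3R lay 136 bp from GluProRS and 124 bp from AP-1sigma, a clathrin adaptor subunit gene. The AsnRS summit (19132167 on 2L) was 213 bp from AsnRS and 156 bp from DCTN6-p27, a dynactin subunit gene. A weaker final summit, with a signal of 164, lay at −420 bp from the AsnRS TSS. ValRS shared its summit (13198587 on 2R) with the histone demethylase gene Kdm4B, at 263 and 250 bp upstream. CysRS-m shared its own (14161350 on 2R) with O-fut1, which encodes the protein O-fucosyltransferase that modifies Notch, at 88 and 80 bp upstream. ProRS-m (2651970 on 3L) lay opposite Snup, the snurportin gene, and CG42304, which share 1 start site 238 bp away. ThrRS was paired with Patsas, MetRS with CG15084, ArgRS with CG8578 and ArgRS-m with CG17816. SerRS and CG17260 start 8 bp apart, and the summit (3037396 on 2L) lay 7 bp inside SerRS.

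AspRS is a special case among these genes, because its final summit did not lie at its first start site. It lay at 12880052 on 2R, 232 bp upstream of an internal TSS, in an intron of the longest AspRS transcript and 178 bp inside the divergent gene Nmda1. At the first AspRS TSS, shared with Lfg, the strongest pooled candidate had a signal of 71.8 at rank 13696, below the final list.

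The unshared summits were all mitochondrial, and they included both of the strongest. SerRS-m had its summit at 15340567 on 3R, 100 bp upstream of its TSS, and the closest TSS of another protein-coding gene, that of Nagk, was 2543 bp away. IleRS-m had its summit 14 bp upstream of its TSS, and the closest other TSS, that of ATPsynbetaL, was 2432 bp away. A second final summit of IleRS-m lay 268 bp downstream of the TSS with a signal of 209.8. PheRS-m had its summit at 13968222 on 2R, 86 bp upstream, and St4 was the closest other gene, at 2939 bp. The signals of these unshared summits were 7750.0, 2093 and 195, and the 12 shared ones ran from 159 to 679.7 with a median of 276. PheRS-m thus lay inside the range of the shared summits, and SerRS-m and IleRS-m above it. Among all protein-coding genes the median was 304 for unshared and 313 for shared summits.

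**Figure D3:**
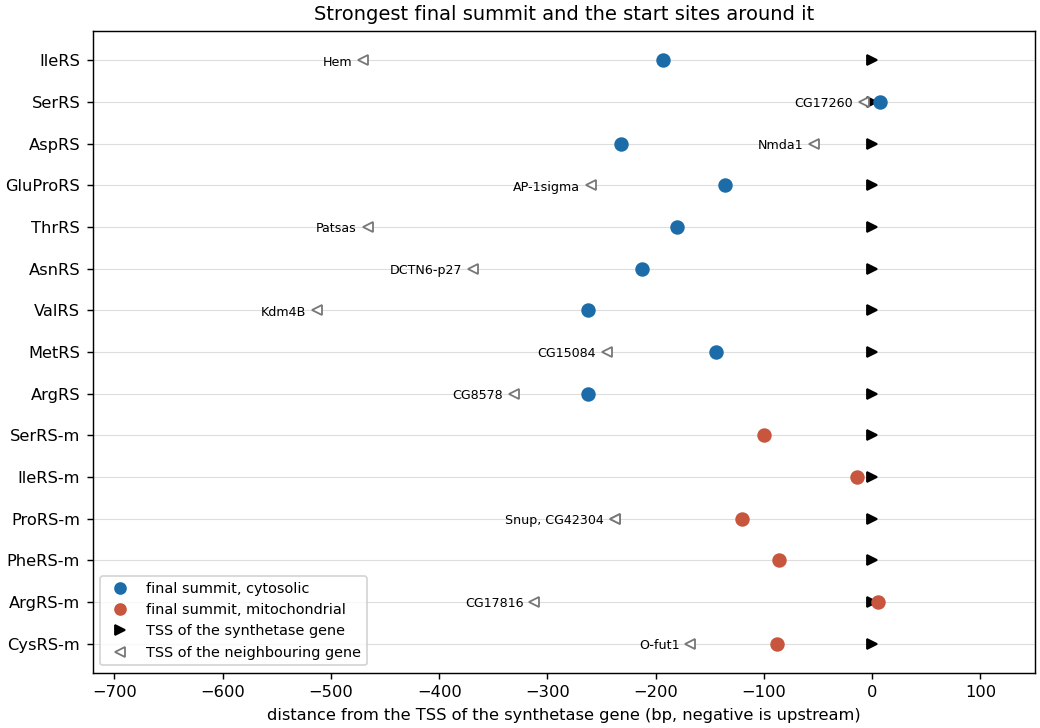
Position of the strongest final summit (coloured points) relative to the TSS of each synthetase gene (black triangles at 0) and the TSS of the neighbouring gene in the window (open triangles), in bp along the strand of the synthetase gene. Cytosolic members are above and mitochondrial members below, each ordered by signal, and SerRS-m, IleRS-m and PheRS-m have no neighbour in the window.

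Many synthetase genes start close to another gene, and the share of genes with a final peak moves with this arrangement genome-wide. Another protein-coding TSS lay within 500 bp of a member's TSS for 22 of 33 members (66.7%), against 30.9% of all protein-coding genes. The number was 15 of 18 cytosolic genes (83.3%) and 7 of 15 mitochondrial genes (46.7%). Among genes with such a neighbour, 11 of 22 members (50%) had a final summit, against 45.3% of all protein-coding genes. Among genes without one, 4 of 11 members (36.4%) did, against 16.2% of all. With a neighbour the share of the members was thus near the background. Without a neighbour the members with a final summit were SerRS-m, IleRS-m, PheRS-m and ValRS, whose neighbour Kdm4B starts 513 bp away. The part of neighbouring genes in the counts of synthetases was not tested.

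**Figure D4:**
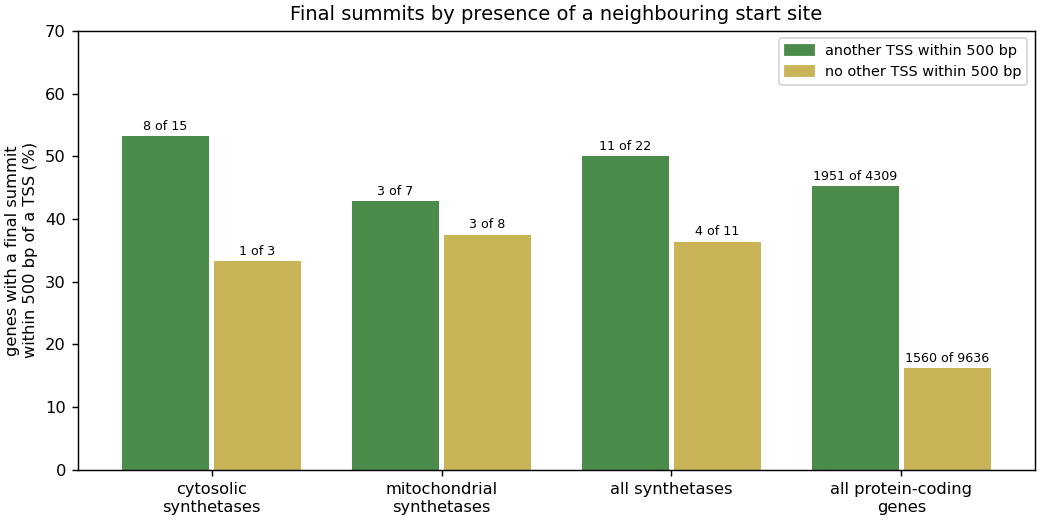
Share of genes with a final summit within 500 bp of a TSS, for genes with another protein-coding TSS within 500 bp (left bar of each pair) and without one (right bar), with the counts above the bars. The bars of all synthetases are 50% and 36.4%, and those of all protein-coding genes are 45.3% and 16.2%.

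The remaining 18 synthetase genes had no final summit at a TSS. For 6 of them the pooled list held a weaker candidate, and cytosolic ones came closest to the final list. GlyRS had 143 at rank 6339, LysRS 141 at rank 6453 and AlaRS 131 at rank 7013, against 159 for ArgRS as the weakest member inside. TyrRS followed with 103 at rank 9117. The mitochondrial AspRS-m (80.3, rank 12074) and MetRS-m (67.3, rank 14836) were weaker than these 4.

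A further 12 members had no pooled candidate at a TSS, in a list whose lowest signal was 38.0. Of the 5 cytosolic genes among them, 4 had a weak candidate in 1 replicate. These were HisRS (43.7) and LeuRS (33.0) in replicate 1 and TrpRS (37.8) and CysRS (26.8) in replicate 2. GlnRS had none in any list. None of the 7 mitochondrial genes (AlaRS-m, AsnRS-m, GluRS-m, LeuRS-m, TrpRS-m, TyrRS-m and ValRS-m) had a candidate in either replicate. The nearest final summits to the TSSs of these 12 genes lay from 926 bp (LeuRS-m) to 10056 bp (ValRS-m) away. No final summit lay inside any of the 33 genes beyond the 500 bp around its start sites.

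Cytosolic and mitochondrial genes for the same amino acid did not always share a state. For 12 amino acids the members pair by symbol, differing only in the ending -m. GluProRS, for glutamate and proline, is outside these pairs. It had a final summit (394), as did ProRS-m (199), whereas GluRS-m had no pooled candidate. Among the 12 pairs, a final summit was present at both genes for arginine, isoleucine and serine, and at neither for alanine, leucine, tryptophan and tyrosine. It was at the cytosolic gene alone for asparagine, aspartate, methionine and valine, and at the mitochondrial gene alone for cysteine. For isoleucine and serine both genes led their class, at 679.7 for IleRS and 2093 for IleRS-m, and at 648 for SerRS and 7750.0 for SerRS-m. The arginine genes, ArgRS (159) and ArgRS-m (171), both had weak peaks.

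The enzymes fall into class I and class II, which have unrelated catalytic folds, and GluProRS holds 1 domain of each. Final summits were at 7 of 18 class I genes and 7 of 14 class II genes, with GluProRS counted in neither. Among cytosolic genes the counts were 4 of 9 class I and 4 of 8 class II, with signals from 159 to 679.7 for class I and from 348 to 648 for class II. Of the 8 cytosolic enzymes whose mammalian counterparts sit in the multisynthetase complex, a large assembly of synthetases, 5 had a final summit (ArgRS, AspRS, GluProRS, IleRS and MetRS). Outside it the number was 4 of 10 cytosolic genes. Each share lies above the 25.2% of all protein-coding genes, and the groups are small. For all protein-coding genes with a neighbouring TSS, which 15 of 18 cytosolic genes have, the share was 45.3%. Not every share here exceeds that.

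The strongest synthetase summits, those of SerRS-m and IleRS-m, held a word that was at no other member's summit. ACGTAA, on either strand, was within 50 bp of the summit at SerRS-m and IleRS-m and at none of the other 13 members. It was in 10.8% of the 3180 windows of that size under final summits at protein-coding TSSs, so its count of 2 in 15 members is near the background. In a split chosen after the values were seen, 60.2% of the 113 windows with a signal at least that of IleRS-m held it, against 9.03% of the 3067 weaker ones. The 113 include IleRS-m and SerRS-m themselves, and a link between the word and signal was not tested. IleRS-m held it at 2 places, beginning 37 bp before and 7 bp after the summit, and SerRS-m held it 38 bp after the summit. ATCGAT and the longer TATCGATA that contains it, a word of the DNA replication-related element, were at ArgRS alone, against 9.37% and 3.55% of all windows. TATAAA was at 6 of 15 members (AsnRS, SerRS, ThrRS, ValRS, CysRS-m and ProRS-m), against 20.9% of all windows. GAGAG was at ArgRS alone (9.09% of all windows). CACGTG (0.975%), TGATGCAA (0.189%), a word of the type bound by ATF4 with its partners, and Motif 1 of core promoters (1.16%) were at no member. The windows of the members had a median G+C content of 28.7% (12.9 to 49.5), against 33.7% for all windows. Whether composition has a part in the word counts was not tested. A word in a window is a description and not a binding site.

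Among factors around the synthetases, the share of genes with a final peak differed between the lists, which hold only 5 to 9 genes each. Differences between these lists were not tested. Of 8 elongation factor genes that take up charged tRNA or recharge the factor that does, 5 had a final summit (62.5%), against 25.2% of all protein-coding genes. eEF1gamma, an exchange factor subunit, had the highest signal of them (828 at rank 543, 3 bp upstream of the TSS). It was followed by the mitochondrial elongation factor genes mEFTu1 (317), mEFTu2 (213) and mEFTs (168) and by eEF1alpha1 (165). eEF1beta (135), eEF1delta (88.6) and eEF1alpha2 (48.6) had candidates only. Of 9 synthetase relatives outside the naming rule, 1 had a final summit (11.1%), below the 25.2% of all protein-coding genes. It was GatA (211), a subunit gene of the mitochondrial glutamyl-tRNA amidotransferase, whose summit also lay by P5cr. The cytosolic phenylalanine enzyme, which has subunits encoded by alpha-PheRS and beta-PheRS, had a candidate at alpha-PheRS (123) and none at beta-PheRS. The mitochondrial SerRS paralogue gene Slimp had 118 and GatC 60.1, and the scaffold genes AIMP1, AIMP2 and AIMP3 and GatB had no pooled candidate. Of 5 genes of the response to uncharged tRNA and its relatives, 1 had a final summit (20%), which is near the 25.2% for so few genes. This gene was eIF2alpha (190.3). Pooled candidates lay at all 5 of these genes, at all 8 elongation factor genes and at 4 of the 9 relatives, against 50.6% of all protein-coding genes. The kinase genes Gcn2 (57.8) and PEK (83.0), the ATF4 gene crc (117) and the translation repressor gene Thor (104) had candidates only.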

How the data were processed

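ChIP-seq peak lists of 2 biological replicates were used. Per the deposited manifests, regions were called on replicate alignments, single or pooled, with 1 shared control alignment. Per the labels, the assembly is dm6 and chromatin was sonicated to 200 to 800 bp. Not given in the sources used here are the aligner, the caller and the discovery rate threshold. The deposited signal, a value per peak that the authors gave, was used to describe and rank peaks within a list. The −log10 q values that the authors deposited were not used. Replicates were listed separately and pooled.

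Summits were matched to every TSS of the Ensembl release 115 annotation of the same assembly, and sequence was read from RefSeq's copy of it, whose arm lengths hold all regions. Python 3.11.15, numpy 2.4.6, pandas 2.3.3 and matplotlib 3.10.9 were used. The matching and word search were tested on simulated data. Named genes were all members, the genes sharing their summits, and listed pathway genes. The members and lists were chosen with earlier results of these data known. No p-values were computed, because 1 group gives no comparison and genes are not replicates. Alternatives were other TSS distances, nearest TSS only, the 3045 strongest peaks, each replicate alone, other summit distances and wider word windows. Printed sequences exclude one chromosome arm.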

Additional observations from a re-analysis of the deposited data

How the results depend on the processing

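The count of 15 members was 13 with a TSS distance of 250 bp (ArgRS and ValRS lost) and 17 with 1000 bp (CysRS and LeuRS-m gained). It was 14 without replicate 1 and 14 without replicate 2. With summits assigned to the closest TSS alone, 7 members remained of the 15, with a median signal of 648 against 348. Cytosolic genes then numbered 3 instead of 9, and mitochondrial genes 4 instead of 6. The share of all protein-coding genes was 19.4% instead of 25.2%, and 7 of 33 members is near that share. Among the 3045 strongest peaks, 8 members remained, 6 cytosolic and 2 mitochondrial, against 15.5% of all protein-coding genes, with fewer peaks by construction. The median signal was 392 at 250 bp, and 7 summits instead of 12 then lay by another gene. Of the 15 summits, 10 had a partner within 50 bp in both replicates. With windows of 100 bp to each side, ATCGAT and TATCGATA were each at 2 of 15 members (ArgRS and PheRS-m) instead of 1. Their shares of all windows of that size were also higher, at 16.2% and 6.76%. The other word counts changed by less than 1.5 times. No paired analysis was possible because there is 1 group. Depth is unknown, so weak regions missing from a list cannot be told apart from unbound ones.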
